A study of Homo sapiens with 12 samples.

Results

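The genes examined were 48 genes of mitosis, the spindle and the kinetochore, chosen by gene name from the expression tables of 12 RNA-Seq libraries of the human iPSC line 201B7. All 48 were among the 58575 genes of the count table and the 60617 genes of the TPM table. The 4 culture conditions, with 3 libraries each, were compared at day 5. Cond 1 was the control in ordinary maintenance culture, Cond 2 (low nutrient) was grown in StemFit that had been heated at 56 °C for 30 min, Cond 3 (differentiation) was grown in DMEM to which FBS (10%), GlutaMax (1%) and MEM NEAA (1%) were added, and Cond 4 (physical stimulus) was pipetted 20 times at passaging and then grown like the control. Every library came from this established line, so no genotype differed between the conditions, and the cells were maintained in StemFit with the ROCK inhibitor Y-27632 on iMatrix511, with a well of each condition on the same plate. The paper describes the heated medium as given from an earlier day than the serum medium. Between Cond 2 and Cond 3, medium and length of exposure therefore cannot be told apart. The labels do not tie a replicate number to a plate, and p-values measure only the spread between these libraries, which may be technical.

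In mitosis, cyclin B with CDK1 drives entry, condensins and topoisomerase II shape the chromosomes, and the kinetochore joins each centromere to spindle microtubules. The spindle checkpoint holds back the anaphase-promoting complex until every kinetochore is attached, after which securin is destroyed and separase cuts the cohesin between sister chromatids. Transcripts of many of these genes peak in G2 and mitosis, and pluripotent stem cells cycle fast with a short G1 phase.

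The 48 genes were grouped by role into 8 groups: entry kinases and cyclins (8 genes), spindle checkpoint (5), anaphase and exit (5), chromosomal passenger complex (4), centromere and kinetochore (7), spindle motors and microtubule binders (12), cytokinesis (2) and chromosome structure (5). In Cond 1 the highest level, in TPM (a count per gene length, scaled to the same total in every library), was that of UBE2C, the ubiquitin-conjugating enzyme of the anaphase-promoting complex, at 469 ± 35.9 TPM (SD, n = 3). CDC20, the activator of that complex, stood at 419 ± 41.9 TPM and CCNB1 at 316 ± 25.5 TPM, and the ranges of UBE2C and CDC20 overlapped. Apart from SPC25, PRC1 and NUSAP1, the lowest mean was that of CDCA3, at 21.6 ± 2.56 TPM. SPC25 and PRC1 still passed the filter on low counts, with 18 to 37 and 16 to 41 reads per library, and NUSAP1, with 0 to 18 reads, did not pass. In GENCODE release 44, 86.8% of the exonic bases of NUSAP1 and 61.9% of those of PRC1 also lay in exons of other genes, against 0% for SPC25, and how such reads were counted is not given in the sources used here. The part of this overlap in the low counts was not tested. Fold changes below therefore cover 47 of the 48 genes.

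The libraries held 16441148 to 21871503 counted reads. Summed TPM over 10 pluripotency markers lay between 5601 and 7022 in all libraries, but its members moved both ways, with 3 higher and 4 lower in Cond 2 and 5 higher and 3 lower in Cond 3 by edgeR. The mean of NANOG was 45.85 TPM in Cond 1, 22.9 TPM in Cond 2 and 10.5 TPM in Cond 3, and that of TDGF1 was 1299, 490.1 and 689 TPM. POU5F1, the pluripotency factor OCT4, had condition means of only 0.592 to 1.32 TPM. The paper found OCT4 protein in most cells of every condition by immunostaining with its manual threshold. The low TPM therefore does not show that OCT4 was absent, and why it was low was not tested. The tissue label is skin, and 9 fibroblast markers summed to 427 to 456 TPM in Cond 1, 266 to 316 TPM in Cond 2, 588 to 624 TPM in Cond 3 and 385 to 409.5 TPM in Cond 4, with FAP at 0 in every library and DCN at 0 in Cond 1 to Cond 3. Of the 6 that could be tested, 0 were higher and 3 lower in Cond 2, and 2 were higher and 1 lower in Cond 3 (edgeR). Of all genes, 20.9% were called in Cond 2 and 38.4% in Cond 3. Cond 2 carried markers of ectodermal lineages: 8 neuroectoderm markers summed to 467 to 766 TPM in Cond 2, 22.9 to 35.1 TPM in Cond 1, 60.2 to 78.3 TPM in Cond 3 and 30.4 to 51.5 TPM in Cond 4. The 8 surface ectoderm markers summed to 41.8 to 82.4 TPM in Cond 2, 22.4 to 24.6 TPM in Cond 1 and 29.5 to 35.4 TPM in Cond 3. By contrast, 8 mesendoderm markers summed to 4.77 to 8.6 TPM in Cond 2 and 5.22 to 10.8 TPM in Cond 1. None of the 3 of them that could be tested was called in Cond 2. The part of cells with such markers in the results on Cond 2 and Cond 3 was not tested. In bulk RNA a larger share of cells in mitosis and more RNA per mitotic cell cannot be told apart.

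Promoters are shown because many mitotic genes are known to share 2 short elements there, the cell cycle gene homology region (CHR), bound by the MuvB core of the DREAM and MYB-MuvB complexes, and the CCAAT box, bound by NF-Y. Sequences came from RefSeq (build GRCh38.p14), which listed 42 of the 48 genes. AURKA, BUB3, TTK, TPX2, BIRC5 and UBE2C were missing from it. In the 250 bases before the transcription start, searched on both strands, the CHR letters TTTGAA occurred in 22 of 42 promoters (52.4%), against 13.6% of 27305 promoters of all genes. TTCGAA, another CHR form, occurred in 0 of 42, against 1.2% of all promoters. No further CHR form was searched for. CCAAT occurred in 30 of 42 (71.4%) against 33% of all promoters, and at least 2 copies in 45.2% against 10%. A match is a description of the letters only, and a promoter without a match says nothing of binding. The promoters of the genes to which the results return most often are given 5′ to 3′ in the direction of transcription, leaving out bases that lie in annotated exons, with the CHR letters and the CCAAT boxes, read on either strand, in capitals.
ESPL1, chr12:53268049-53268298, plus strand: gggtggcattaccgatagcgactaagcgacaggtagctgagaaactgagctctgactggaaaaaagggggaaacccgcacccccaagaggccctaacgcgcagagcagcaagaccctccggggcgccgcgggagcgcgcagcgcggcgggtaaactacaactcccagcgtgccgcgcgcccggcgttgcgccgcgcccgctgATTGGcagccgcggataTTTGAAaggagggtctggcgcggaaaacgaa
PTTG1, chr5:160421712-160421854, plus strand: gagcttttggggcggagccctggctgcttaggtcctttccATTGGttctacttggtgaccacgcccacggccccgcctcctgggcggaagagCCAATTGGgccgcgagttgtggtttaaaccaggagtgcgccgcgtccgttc
CCNB1, chr5:69166950-69167134, plus strand: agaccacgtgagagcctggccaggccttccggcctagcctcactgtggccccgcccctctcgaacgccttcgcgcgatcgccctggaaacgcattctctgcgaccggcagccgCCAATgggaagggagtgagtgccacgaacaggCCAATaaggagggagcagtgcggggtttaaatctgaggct
CCNB2, chr15:59104896-59105125, plus strand: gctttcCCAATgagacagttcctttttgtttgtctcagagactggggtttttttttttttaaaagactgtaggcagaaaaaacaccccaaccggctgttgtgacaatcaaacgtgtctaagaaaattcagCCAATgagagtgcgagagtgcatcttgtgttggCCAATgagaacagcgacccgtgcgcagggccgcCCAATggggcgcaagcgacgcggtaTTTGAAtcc
BUB1, chr2:110678064-110678204, minus strand: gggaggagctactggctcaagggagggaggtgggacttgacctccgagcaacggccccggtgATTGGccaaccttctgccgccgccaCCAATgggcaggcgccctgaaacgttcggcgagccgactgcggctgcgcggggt
TOP2A, chr17:40417897-40418146, minus strand: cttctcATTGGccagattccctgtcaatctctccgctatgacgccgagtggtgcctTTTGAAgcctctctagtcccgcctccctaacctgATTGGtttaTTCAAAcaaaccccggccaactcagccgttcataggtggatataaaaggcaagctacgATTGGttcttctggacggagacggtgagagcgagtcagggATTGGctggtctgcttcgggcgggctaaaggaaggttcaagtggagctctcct
ESPL1, CCNB2 and TOP2A held the CHR letters in the stretch shown. Of the letters searched for, CCNB1, BUB1 and PTTG1 held only CCAAT boxes there, and those of PTTG1 nearest the start overlap each other. The 4 boxes of CCNB2 and the 4 of TOP2A are the most among these 6 promoters.

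Cond 3, the serum medium, showed the broadest change of the mitotic genes. Of 47 genes tested against Cond 1, 26 rose and 5 fell, which is 66% of them, by edgeR's quasi-likelihood test at an adjusted p under 0.05. Over all 17747 genes tested, 38.4% were called in this comparison, 19.5% higher and 18.8% lower. None of the 47 passed a 2-fold change, which 8.16% of all genes did, and their median log2 fold change was 0.21, against -0.0064 over all genes tested. Separase (ESPL1), the scaffold INCENP, the checkpoint kinase BUB1 and the condensin subunits SMC4 and NCAPG had the largest rises, and securin (PTTG1) the largest fall. The plot of fold changes by role shows how unevenly the groups moved.

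**Figure D1:**
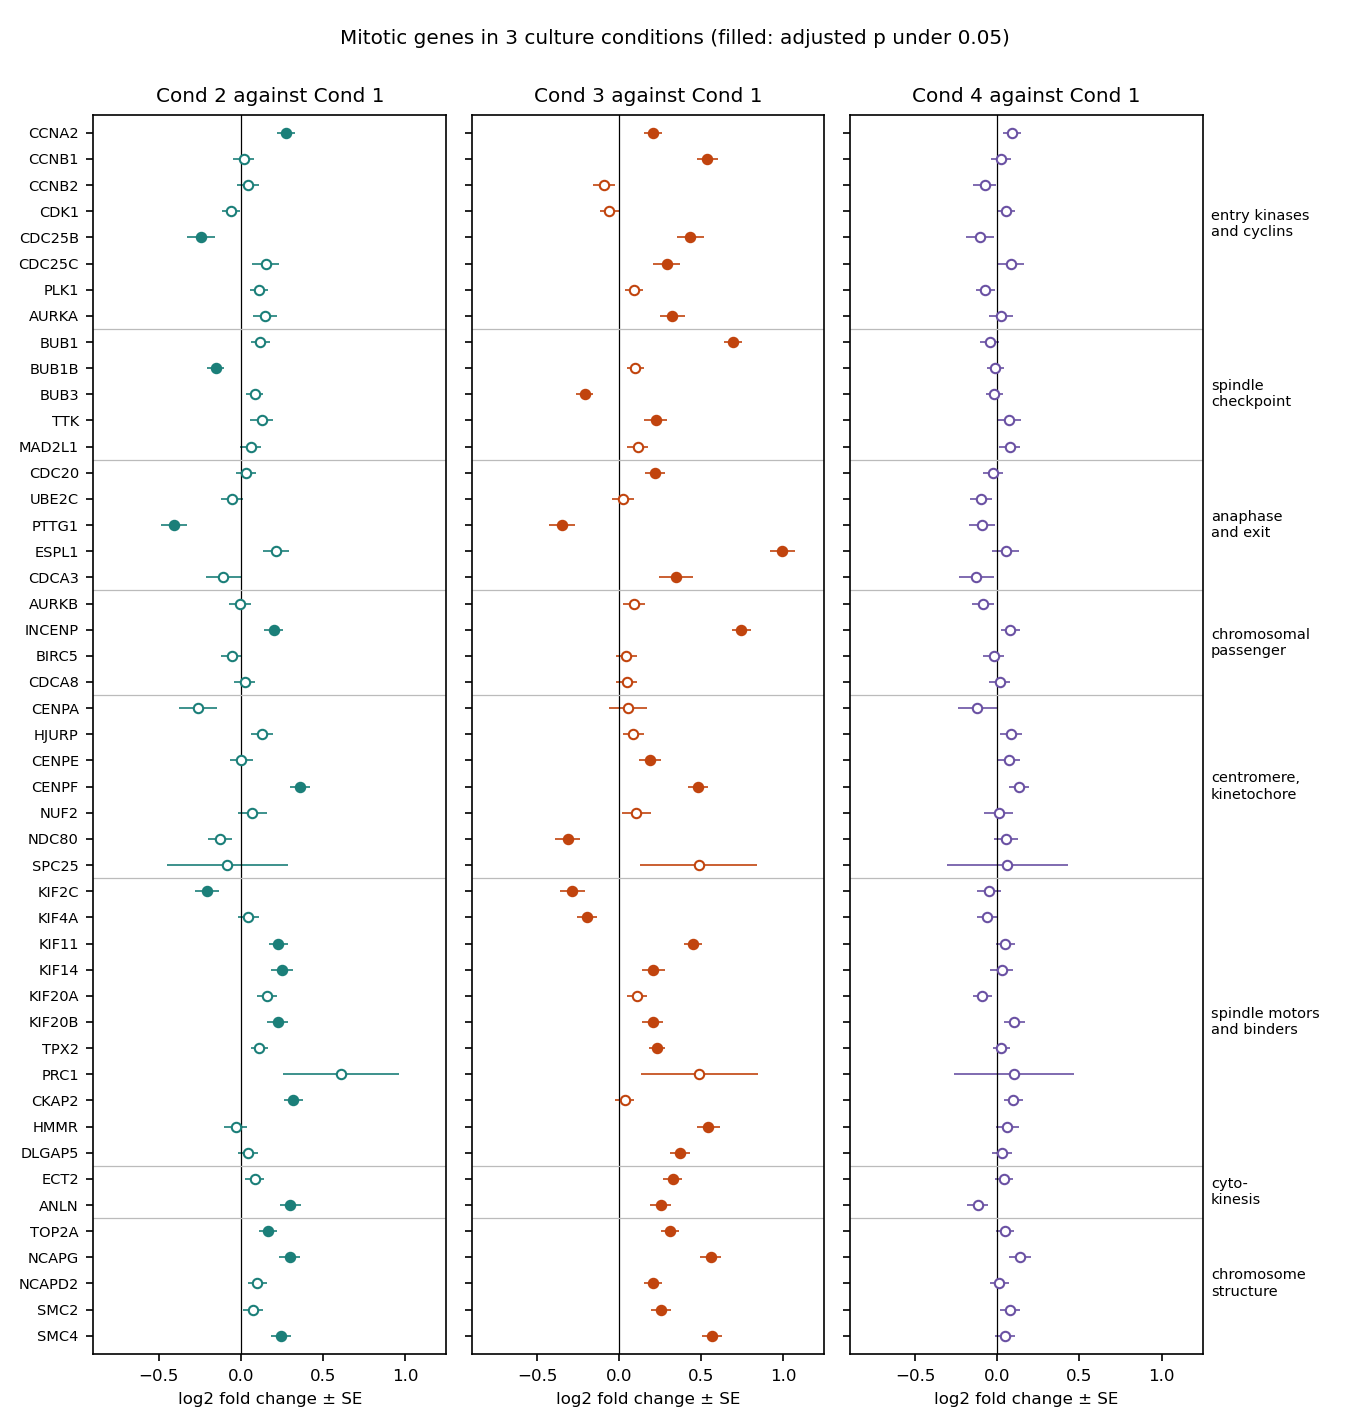
Log2 fold change with its standard error (x axis) of the 47 mitotic genes tested (y axis, in role groups) in Cond 2, Cond 3 and Cond 4 against Cond 1, by edgeR, with filled points for an adjusted p under 0.05. Cond 3 has 31 filled points, Cond 2 has 15 and Cond 4 has none, and the values of Cond 4 lie between -0.13 and 0.14.

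Among the entry kinases and cyclins, 5 of 8 rose in Cond 3 (62.5%, against 19.5% of all genes) and none fell. CCNB1, cyclin B1, had 322, 339 and 288 TPM in Cond 1, 321, 326 and 371 TPM in Cond 2, 477, 456 and 469 TPM in Cond 3, and 309, 343 and 320.2 TPM in Cond 4. The libraries of Cond 3 stood above all others without overlap, and the other 3 conditions overlapped. The log2 fold change of CCNB1 against Cond 1 was 0.54 ± 0.06 (SE), a fold of 1.45, with an adjusted p of 3.78e-07 (edgeR). CDC25B, a phosphatase that activates CDK1, had 41.4, 42.6 and 40.6 TPM in Cond 1 and 56.0, 57.3 and 58.2 TPM in Cond 3, again without overlap, and its log2 fold change was 0.43 ± 0.08. AURKA, the centrosome kinase, rose by 0.32 ± 0.07, CDC25C, another CDK1 phosphatase, by 0.29 ± 0.08, and CCNA2, cyclin A2, by 0.20 ± 0.06 on the log2 scale. CDK1 itself had 143, 155 and 149 TPM in Cond 1 and 149.5, 141 and 147 TPM in Cond 3, which overlapped, with a log2 fold change of -0.06 ± 0.06 that did not pass the test. CCNB2, cyclin B2, had a log2 fold change of -0.09 ± 0.07 and PLK1, the polo-like kinase, one of 0.09 ± 0.06, and neither passed.

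The checkpoint genes split. BUB1, the kinase that marks centromeric histone H2A, had 136, 147 and 138 TPM in Cond 1, 149.5, 161 and 174 TPM in Cond 2, and 234.3, 227 and 231 TPM in Cond 3. Cond 3 thus stood clear of Cond 1 and Cond 2. Its log2 fold change against Cond 1 was 0.69 ± 0.06, a fold of 1.62 (edgeR, adjusted p = 1.94e-09). BUB3, which brings BUB1 and BUB1B to kinetochores, had 91.4, 98.9 and 90.2 TPM in Cond 1 and 84.3, 80.9 and 81.7 TPM in Cond 3. The libraries of Cond 3 lay below those of Cond 1 without overlap, and the log2 fold change was -0.21 ± 0.05 (edgeR, adjusted p = 0.00207). TTK, the MPS1 kinase, rose by 0.22 ± 0.07 on the log2 scale, while MAD2L1, the checkpoint effector MAD2, at 0.11 ± 0.06, and BUB1B, at 0.10 ± 0.05, did not pass the test.

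Securin and separase moved in opposite directions. ESPL1, the separase protease, had 23.95, 22.6 and 22.5 TPM in Cond 1, 29.9, 28.85 and 26.1 TPM in Cond 2, and 46.6, 49.45 and 44.15 TPM in Cond 3. The 3 conditions did not overlap, and ESPL1 had the largest log2 fold change of the 47 genes in Cond 3, at 0.99 ± 0.08, a fold of 1.99 (edgeR, adjusted p = 1.08e-09). PTTG1, the securin that inhibits separase, had 245, 294 and 216 TPM in Cond 1 and 205, 191 and 206 TPM in Cond 3. The groups did not overlap although the highest Cond 3 library came close to the lowest control, and the log2 fold change was -0.35 ± 0.08 (edgeR, adjusted p = 0.00107). CDC20 rose by 0.22 ± 0.06 and CDCA3, a trigger of mitotic entry, by 0.35 ± 0.10 on the log2 scale. UBE2C had 437, 508 and 462 TPM in Cond 1 and 499.8, 455 and 502.5 TPM in Cond 3, which overlapped, and its log2 fold change of 0.02 ± 0.07 did not pass.

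In the chromosomal passenger complex only INCENP was called, which is 25% of its genes, against 38.4% of all genes. INCENP, the scaffold that binds and activates Aurora B, had 88.3, 79.15 and 83.0 TPM in Cond 1, 100.5, 102 and 103 TPM in Cond 2, and 141, 140.1 and 146 TPM in Cond 3, with no overlap between these 3 conditions. Its log2 fold change in Cond 3 was 0.74 ± 0.06, a fold of 1.67 (edgeR, adjusted p = 8.24e-10). AURKB, the kinase of the complex, had 199, 232.5 and 207 TPM in Cond 1 and 242, 229 and 221 TPM in Cond 3, which overlapped. The log2 fold changes of AURKB, BIRC5 (survivin) and CDCA8 (borealin) were 0.09 ± 0.07, 0.04 ± 0.06 and 0.05 ± 0.06, and none passed the test.

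Of the 7 centromere and kinetochore genes, 2 rose and 1 fell in Cond 3 (42.9%), close to the 38.4% of all genes called. CENPF, a large coiled-coil protein of the outer kinetochore, had 71.35, 80.7 and 73.4 TPM in Cond 1, 93.7, 109.6 and 104 TPM in Cond 2, and 108, 112 and 101 TPM in Cond 3. Cond 2 and Cond 3 both lay above Cond 1 and overlapped each other, and the log2 fold change in Cond 3 was 0.48 ± 0.06 (edgeR, adjusted p = 1.13e-06). CENPE, a kinetochore motor, rose by 0.19 ± 0.07 on the log2 scale. NDC80, the microtubule-binding subunit of the complex it names, had 65.9, 77.3 and 69.3 TPM in Cond 1 and 58.6, 61.1 and 54.4 TPM in Cond 3, without overlap, and fell by 0.31 on the log2 scale, with a standard error of 0.07. NUF2, the partner of NDC80 in that complex, at 0.11 ± 0.09, CENPA, the centromeric histone, at 0.05 ± 0.12, and HJURP, its chaperone, at 0.09 ± 0.07, did not pass.

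Among the spindle motors and microtubule binders, 6 of 11 tested rose and 2 fell (72.7%, against 38.4% of all genes). HMMR, a spindle assembly factor, had 66.7, 67.4 and 65.6 TPM in Cond 1, 64.1, 65.95 and 77.5 TPM in Cond 2, and 99.5, 95.8 and 101 TPM in Cond 3. Cond 3 stood clear of the other 2 conditions, with a log2 fold change against Cond 1 of 0.54 ± 0.07 (edgeR, adjusted p = 1.41e-06). KIF11, the motor that pushes spindle poles apart, rose by 0.45 ± 0.06, DLGAP5 (HURP), which stabilizes kinetochore fibres, by 0.37 ± 0.06, TPX2, which activates Aurora A on the spindle, by 0.23 ± 0.05, and KIF14 and KIF20B, kinesins of the midzone, by 0.21 ± 0.07 and 0.20 ± 0.07 on the log2 scale. TPX2, the most abundant of the group over all 12 libraries, had 196, 200.5 and 182 TPM in Cond 1 and 234, 230.0 and 227 TPM in Cond 3. KIF2C, a kinesin that depolymerizes microtubules (MCAK), had 125, 137 and 113 TPM in Cond 1 and 104, 94.2 and 115 TPM in Cond 3. Those groups overlapped in their TPM, and the log2 fold change of -0.28 ± 0.07 passed (edgeR, adjusted p = 0.00359). KIF4A, a chromokinesin, fell by 0.20 on the log2 scale, with a standard error of 0.06.

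Every gene of cytokinesis and chromosome structure rose in Cond 3, 2 of 2 and 5 of 5, where 19.5% of all genes rose. ECT2, the exchange factor that activates RhoA at the cell equator, had 86.2, 81.2 and 80.0 TPM in Cond 1 and 102, 108 and 105 TPM in Cond 3, without overlap, and ANLN, anillin of the contractile ring, had 62.1, 65.0 and 60.2 TPM in Cond 1 and 73.15, 73.15 and 81.1 TPM in Cond 3. SMC4, a core ATPase of condensin, had 64.35, 59.4 and 63.8 TPM in Cond 1, 77.0, 81.6 and 77.5 TPM in Cond 2, and 90.8, 92.7 and 100.1 TPM in Cond 3. The 3 conditions formed separate steps, with a log2 fold change of 0.57 ± 0.06 in Cond 3 (edgeR, adjusted p = 1.28e-07). NCAPG, a condensin I subunit, rose by 0.56 ± 0.06, SMC2, the partner of SMC4, by 0.26 ± 0.06, and NCAPD2, another condensin I subunit, by 0.21 ± 0.06 on the log2 scale. TOP2A, topoisomerase II alpha, had 276, 295 and 274 TPM in Cond 1, 298, 342 and 368 TPM in Cond 2, and 351, 353 and 364 TPM in Cond 3. Both groups lay above Cond 1, and the log2 fold change in Cond 3 was 0.31 ± 0.06. Of the 31 calls in Cond 3, 24 held in every other fit tried. CDC20 lost its call without Cond 1 replicate 3 (log2 fold change 0.145, edgeR adjusted p = 0.0741), KIF4A without Cond 1 replicate 2 or Cond 3 replicate 2, TTK and KIF20B without Cond 1 replicate 1 or Cond 3 replicate 2, and CDCA3, CENPE and KIF14 without 3 or 4 of the 6 libraries in turn, with adjusted p from 0.0525 to 0.129 over those 6 genes. KIF4A was also lost with limma on log2(TPM + 1) (adjusted p = 0.0708) and CENPE with no filter on low counts (edgeR, adjusted p = 0.0722).

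**Figure D2:**
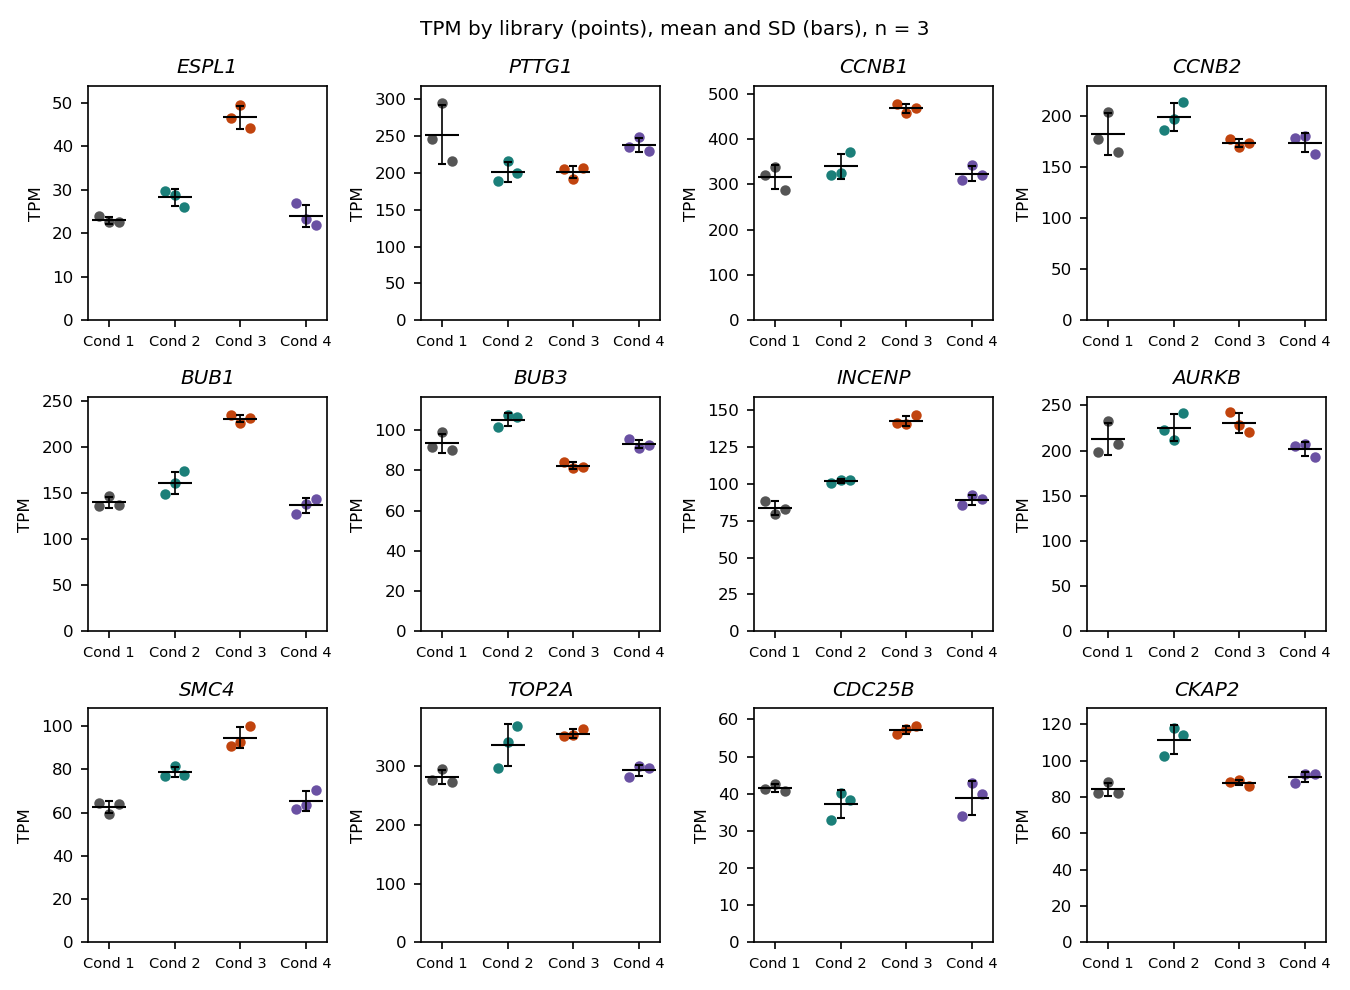
TPM (y axis, from 0) of 12 mitotic genes in each library of the 4 conditions (x axis), with the mean and SD as bars, n = 3. Cond 3 stands above every other condition for ESPL1, CCNB1, BUB1, INCENP, SMC4 and CDC25B, while PTTG1 and BUB3 are lower there than in Cond 1 and CKAP2 is highest in Cond 2.

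Cond 2, the heated medium, changed fewer of these genes and by less. Against Cond 1, 11 of 47 rose and 4 fell (31.9%) by edgeR's quasi-likelihood test, against 20.9% of all genes tested, 10.8% higher and 10.1% lower. None of the 47 passed a 2-fold change, which 4.34% of all genes did. The median log2 fold change of the 47 genes was 0.08, against 0.00018 over all genes tested. The genes that rose were CENPF, CKAP2, ANLN, NCAPG, CCNA2, KIF14, SMC4, KIF11, KIF20B, INCENP and TOP2A, which include 4 motors or microtubule binders and 3 of the 5 chromosome structure genes. None of the checkpoint or anaphase genes passed the test upward, where 10.8% of all genes did. ESPL1, at 0.21 ± 0.08 (edgeR, adjusted p = 0.0607), BUB1, at 0.12 ± 0.06, TTK, at 0.13 ± 0.07, and BUB3 lay above Cond 1 in TPM in every library, and PTTG1 lay below. The share of all genes without such overlap was not counted, so this is no result about these genes. On TPM the median over all genes in Cond 2 was itself 0.085 (limma on log2(TPM + 1)).

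CENPF, whose levels are given above, had a log2 fold change of 0.36 ± 0.06 in Cond 2 (edgeR, adjusted p = 0.000104). CKAP2, a microtubule-associated protein of spindle poles, had 82.2, 88.5 and 82.3 TPM in Cond 1, 102.5, 118 and 114 TPM in Cond 2, and 88.4, 89.2 and 86.2 TPM in Cond 3. Cond 2 stood above both other conditions, and CKAP2 was the only one of the 47 genes called higher in Cond 2 and not in Cond 3, at 0.32 ± 0.06 (edgeR, adjusted p = 0.000271). ANLN had 79.4, 83.1 and 82.5 TPM in Cond 2, above the Cond 1 libraries, with a log2 fold change of 0.30 ± 0.06, and NCAPG one of 0.30 ± 0.06. PTTG1 had 189, 215 and 199 TPM in Cond 2. Its highest Cond 2 library lay just under the lowest control, and the log2 fold change was -0.41 ± 0.08 (edgeR, adjusted p = 0.000476), the largest change among those called in Cond 2.

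The other genes called lower in Cond 2 were CDC25B at -0.25 ± 0.08, KIF2C at -0.21 ± 0.07 and BUB1B, a component of the mitotic checkpoint complex, at -0.15 ± 0.05 on the log2 scale. These 3 calls rested on the full set of libraries. CDC25B kept its call only without Cond 2 replicate 2, KIF2C only without Cond 1 replicate 3 and BUB1B only without Cond 1 replicate 1, and with any other library of Cond 1 or Cond 2 left out the edgeR adjusted p was 0.0581 to 0.227 over the 3 genes. TOP2A lost its call without Cond 1 replicate 1 or 3 or Cond 2 replicate 2 or 3 (adjusted p = 0.0984 to 0.21), KIF14 without Cond 1 replicate 1 or Cond 2 replicate 2 or 3, KIF20B without Cond 1 replicate 1 or Cond 2 replicate 2, and INCENP without Cond 1 replicate 2. ANLN, CCNA2, CENPF, CKAP2, KIF11, NCAPG and SMC4 kept their calls in every other fit tried, and PTTG1 lost its call only with limma on log2(TPM + 0.1). On TPM the split in Cond 2 was 16 higher and 1 lower of 46 genes (limma on log2(TPM + 1)), with 25.2% of all 14253 genes called and 18% called higher, and the median over all genes there was 0.08 instead of 0.00018.

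Both comparisons share the control libraries, so shared calls are no independent result. PTTG1 and KIF2C were lower in each. CDC25B was the only gene called in opposite directions. The Cond 2 calls of KIF2C and CDC25B were lost in 8 and 7 of 14 other fits, so these joint patterns are weak for both. The 14 genes called in neither were AURKB, BIRC5, CDCA8, CDK1, CCNB2, PLK1, UBE2C, MAD2L1, NUF2, HJURP, CENPA, KIF20A, SPC25 and PRC1. They include CDK1 and all of the passenger complex except INCENP. The share of all genes called in neither was not counted.

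Cond 3 was also compared directly with Cond 2, where the media and the length of exposure to them both differed. In Cond 3, 18 of 47 genes were higher and 3 lower than in Cond 2 (44.7%) by edgeR's quasi-likelihood test, against 38.2% of all genes tested, 19% higher and 19.2% lower. A 2-fold difference was passed by none of the 47 and by 8.77% of all genes. The median log2 fold change was 0.11, against -0.0012 over all genes. ESPL1 differed most, at 0.78 ± 0.08, followed by CDC25B at 0.68 ± 0.08, HMMR at 0.58 ± 0.07 and BUB1 at 0.57 ± 0.06 on the log2 scale (edgeR, adjusted p from 3.31e-08 to 8.67e-07). CDC25B had 33.0, 40.2 and 38.4 TPM in Cond 2, all under the lowest library of Cond 3. INCENP at 0.54 ± 0.06 and CCNB1 at 0.52 ± 0.06 were also higher in Cond 3. BUB3, KIF4A and CKAP2 were lower in Cond 3 than in Cond 2, at -0.29 ± 0.05, -0.24 ± 0.06 and -0.28 ± 0.06. Of the genes that rose against Cond 1 in both media, CENPF, at 0.12 ± 0.06, CCNA2, at -0.07 ± 0.06, ANLN, at -0.05 ± 0.06, KIF14, at -0.04 ± 0.07, and KIF20B, at -0.02 ± 0.06, did not pass between the media, which does not show equal levels. Of the 21 calls, TOP2A, CDC20, CENPA, CENPE and SMC2 were lost when some of the 6 libraries were left out (edgeR adjusted p = 0.0525 to 0.253), with TOP2A kept only without Cond 2 replicate 3. These 5 and KIF11 were also lost with limma on TPM (adjusted p = 0.056 for KIF11), and 15 of the 21 held in every other fit.

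Cond 4, repeated pipetting, gave no call. None of 47 genes passed edgeR's quasi-likelihood test, where 0.0282% of all genes did (0.0225% higher, 0.00563% lower, and 0.0169% past a 2-fold change), and none passed with DESeq2 (0.0676% of all genes) or limma on TPM (0.014%). At an unadjusted p under 0.05 there were 2, CENPF at 0.13 ± 0.06 and NCAPG at 0.14 ± 0.07 on the log2 scale, where 6.21% of all genes had such a p. All 47 values lay between -0.13 and 0.14, with a median of 0.03. TOP2A, for example, had 283, 301 and 297 TPM in Cond 4, which overlapped Cond 1, and so did CCNB1, ESPL1, INCENP, BUB1 and PTTG1. Of the 48 genes, 43 overlapped Cond 1 in TPM, and CCNA2, TTK, KIF20B, NCAPG and SMC2 lay above it in every library of Cond 4. The share of all genes without overlap was not counted, so this is no result about these genes. The exact two-sided permutation p of each was 0.1, the smallest that 3 libraries against 3 allow.

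The log2 ratio of TPM within a library, which no library scaling affects, was taken for 5 pairs of partner genes. The pairs were picked because their values differed, so the ratios describe these pairs alone. The ratio of ESPL1 to PTTG1 was -3.35, -3.70 and -3.26 in Cond 1, -2.66, -2.90 and -2.93 in Cond 2, -2.14, -1.95 and -2.22 in Cond 3, and -3.12, -3.42 and -3.38 in Cond 4. Cond 3 lay above Cond 2, and Cond 2 above Cond 1, without overlap. The difference from Cond 1 was 1.335 in Cond 3 and 0.61 in Cond 2, each with p = 0.1 in an exact two-sided permutation test, the smallest p that 3 libraries against 3 allow. Because the pair was picked on these same values, that p gives no support.

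The ratio of CCNB1 to CCNB2 was 0.86, 0.73 and 0.81 in Cond 1 and 1.42, 1.43 and 1.44 in Cond 3, a difference of 0.63. That of CCNB1 to CDK1 differed by 0.60, that of INCENP to AURKB by 0.65 and that of BUB1 to BUB3 by 0.90 between Cond 3 and Cond 1. Each of these was without overlap (exact permutation p = 0.1), which the choice of pairs made likely, so the p gives no support. In Cond 2 the same 4 differences from Cond 1 were -0.03, 0.08, 0.20 and 0.03, and the libraries overlapped in each (exact permutation p from 0.2 to 0.7). Ratios of RNA say nothing of the proteins.

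**Figure D3:**
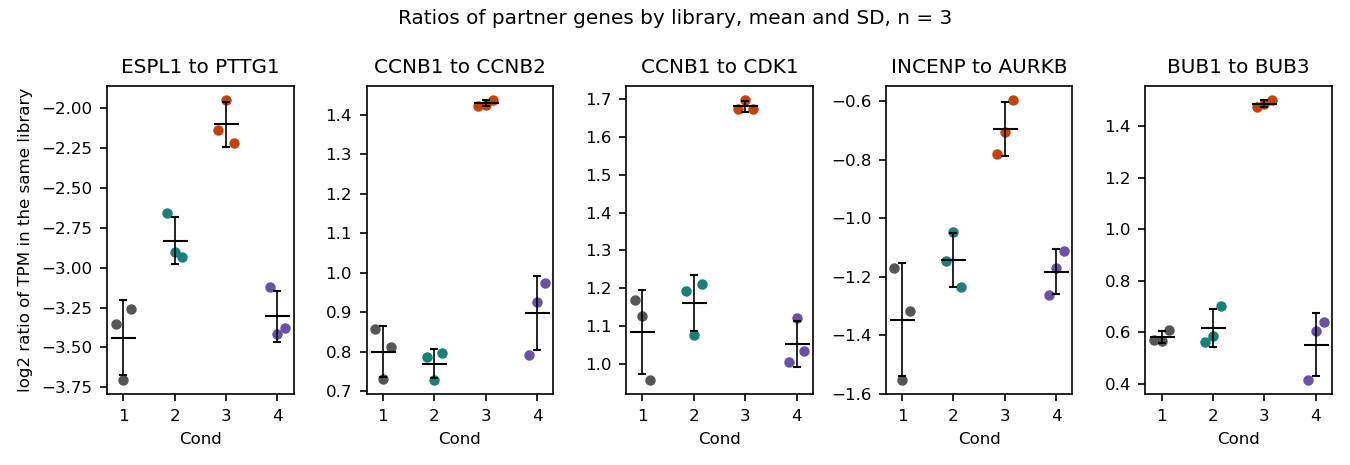
Log2 ratio of the TPM of 2 partner genes in the same library (y axis) by condition (x axis, Cond 1 to Cond 4), with mean and SD, n = 3, and a separate scale for each pair. Cond 3 lies above every other condition in all 5 panels, and Cond 2 lies above Cond 1 without overlap only for ESPL1 to PTTG1. The pairs were picked after these values were seen.

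Other genes of mitosis, from lists that held none of the 48, moved less evenly. Of 82 tested, 30 rose and 12 fell in Cond 3 (51.2%, against 38.4% of all genes). In Cond 2, 22 rose and 1 fell (28%, against 20.9%), and in Cond 4, 0 were called (against 0.0282%). At an unadjusted p under 0.05 there were 10 in Cond 4 by edgeR, where 6.21% of all genes had such a p. Neither DESeq2 nor limma called any. Among 14 condensin and cohesin genes tested, 9 rose in Cond 3 (64.3%, against 19.5% of all genes) and none fell. STAG1, a cohesin subunit, stood at 0.54 ± 0.09, NCAPG2 of condensin II at 0.49 ± 0.06 and PDS5B, a cohesin regulator, at 0.47 ± 0.08 on the log2 scale. In Cond 2, 7 of the 14 rose (50%, against 10.8% of all genes), including the cohesin subunit SMC3 at 0.30 ± 0.06.

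Among 23 other kinetochore genes, 5 rose and 5 fell in Cond 3 (43.5%), close to the 38.4% of all genes. KNL1, the scaffold on which BUB1 and BUB3 assemble, rose by 0.52 ± 0.09, and ZW10, of the complex that recruits dynein, by 0.44 ± 0.09, while CENPP, of the inner kinetochore, fell by 0.44 on the log2 scale, with a standard error of 0.16, a call lost in 7 of 14 other fits. Of 17 genes of the anaphase-promoting complex and its regulators, 5 rose and 5 fell (58.8%, against 38.4% of all genes). The co-activator FZR1 (CDH1) rose by 0.61 ± 0.09 and the subunit CDC26 by 0.99 ± 0.18, while the subunit ANAPC16 fell by 0.72, with a standard error of 0.06. Among the spindle, centrosome and cytokinesis genes, FAM83D rose by 0.59 ± 0.07, CEP55, which directs abscission, by 0.52 ± 0.12 and TACC3, a spindle stabilizer, by 0.46 ± 0.06. MKI67, the proliferation marker Ki-67, rose by 0.70 ± 0.07 in Cond 3 and stood at 0.19 ± 0.07 in Cond 2 without passing, while CKS1B, a small CDK-binding protein, fell by 0.63 in Cond 3, with a standard error of 0.07.

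**Figure D4:**
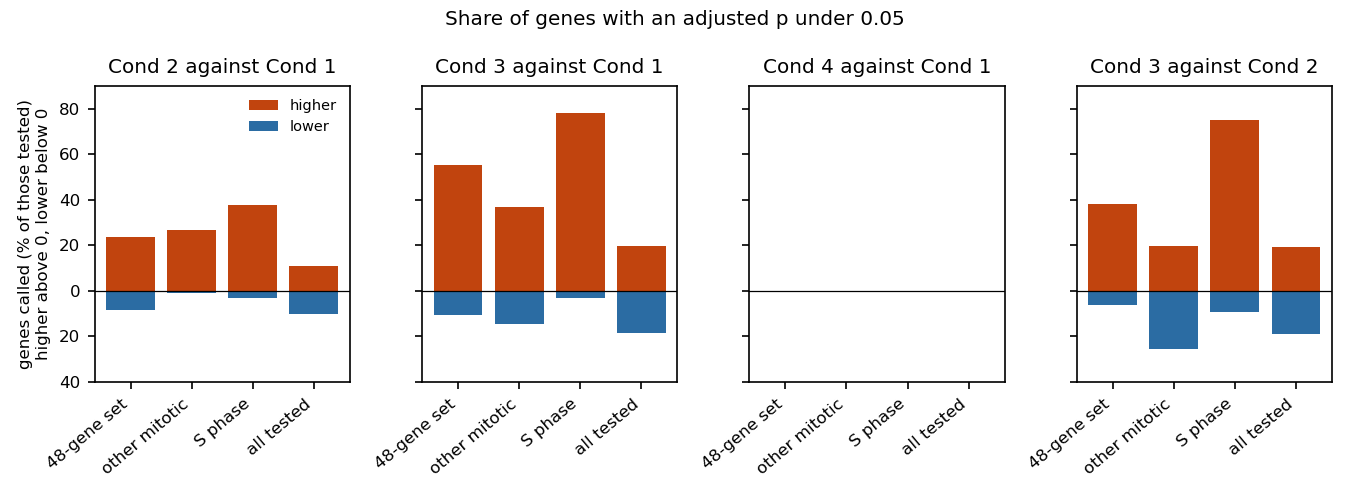
Percent of genes tested that were called higher (above 0) or lower (below 0) by edgeR at an adjusted p under 0.05, for the 47 mitotic genes, 82 other mitotic genes, 32 S phase genes and all 17747 genes, in 4 comparisons. In Cond 3 against Cond 1 the higher share was 55.3% of the mitotic set, 36.6% of the other mitotic genes, 78.1% of the S phase genes and 19.5% of all genes.

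DNA replication genes, which act before mitosis, rose in a larger share. In Cond 3, 25 of 32 S phase genes rose and 1 fell (81.2%), with UHRF1, which guides maintenance of DNA methylation, at 1.80 ± 0.07, CCNE1, cyclin E1, at 1.00 ± 0.09 and POLA1, the primase-bound polymerase, at 0.75 ± 0.07 on the log2 scale. That share compares with 38.4% of all genes. In Cond 2, 12 rose and 1 fell (40.6%, against 20.9% of all genes), with CDC6, a licensing factor, at 0.60 ± 0.06. In Cond 4, 0 of 32 were called by edgeR, DESeq2 or limma, and 3 had an unadjusted p under 0.05 (edgeR), where 6.21% of all genes did.

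Of 19 known regulators of the mitotic programme, 6 rose and 2 fell in Cond 3 (42.1%, against 38.4% of all genes), with a median log2 fold change of -0.0073, and 5 rose and 1 fell in Cond 2 (31.6%, against 20.9%). RBL1, the pocket protein p107, rose by 0.68 ± 0.11 in Cond 3 and 0.37 ± 0.11 in Cond 2 on the log2 scale. FOXM1, a factor that drives late cell cycle genes, had log2 fold changes of 0.35 ± 0.06 in Cond 3 and 0.20 ± 0.06 in Cond 2, and MYBL2, the MYB of the activating MuvB complex, 0.49 ± 0.06 and 0.35 ± 0.06. These changes of RBL1, FOXM1 and MYBL2 passed edgeR's test, and those of RBL1 and FOXM1 in Cond 2 were each lost in 4 of 14 other fits. CDKN1A, the CDK inhibitor p21, had 66.6, 46.5 and 62.2 TPM in Cond 1, 18.5, 43.1 and 54.2 TPM in Cond 2, 13.2, 12.04 and 14.1 TPM in Cond 3, and 56.2, 49.0 and 69.3 TPM in Cond 4. Cond 3 was below all other libraries, with a log2 fold change of -2.19 ± 0.23 (edgeR, adjusted p = 1.05e-07), while Cond 2 overlapped Cond 1 and its log2 fold change of -0.70 ± 0.21 was -0.38 without Cond 2 replicate 1 (edgeR, adjusted p = 0.0595). The part of these regulators in the levels of the mitotic genes was not tested.

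The changes in Cond 3 were also counted by promoter letters, with no test of a difference. With TTTGAA, 12 of 22 genes tested rose and 1 fell, with a median log2 fold change of 0.28. Without it, 11 of 19 rose and 3 fell, with a median of 0.20. With CCAAT, 16 of 29 rose and without it 7 of 12, with medians of 0.21 and 0.22. Of all genes tested, 19.5% rose there. Against Cond 2, 12 of 22 genes with TTTGAA were higher in Cond 3 and 6 of 19 without it, where 19% of all genes were higher. The CCAAT split went the other way, with 12 of 29 higher with the box and 6 of 12 without it. In Cond 2 against Cond 1, 6 of 22 rose with TTTGAA and 5 of 19 without it, where 10.8% of all genes rose. With CCAAT, 7 of 29 rose there, and without it 4 of 12.

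Averaged over the 47 genes, the log2 ratio of the scaled count to the Cond 1 mean was 0.21, 0.21 and 0.25 in the libraries of Cond 3, 0.06, 0.06 and 0.11 in those of Cond 2, and between -0.03 and 0.06 in Cond 1 and Cond 4. The lowest Cond 2 library thus stood only just above the highest control, Cond 1 replicate 2, while all of Cond 3 stood apart. Without Cond 1 replicate 2 the median log2 fold change over the genes was 0.125 in Cond 2 and 0.245 in Cond 3. Summed TPM of the 48 genes was 5246 to 5872 in Cond 1, 5711 to 6345 in Cond 2 and 6318 to 6504 in Cond 3, with Cond 4 inside the range of Cond 1.

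**Figure D5:**
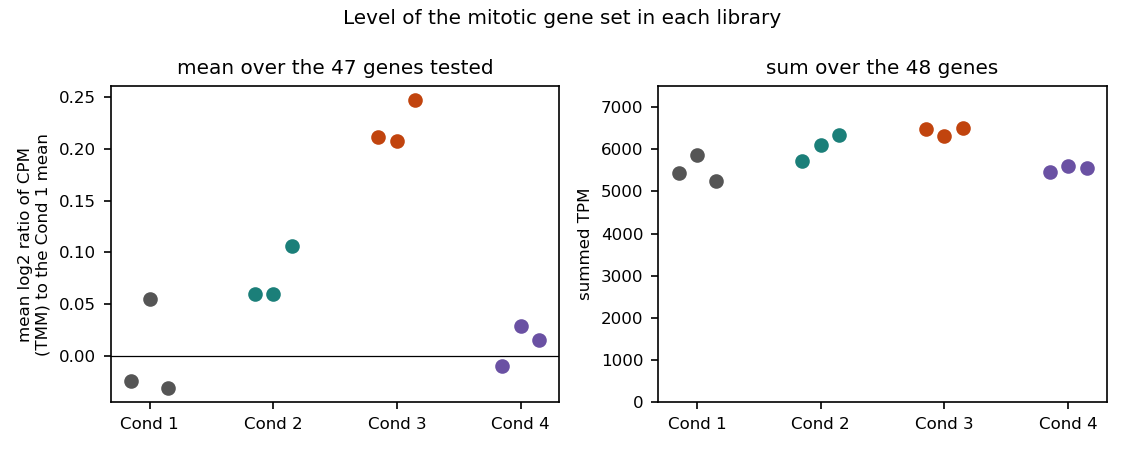
Left, mean log2 ratio of TMM-scaled CPM to the Cond 1 mean over 47 mitotic genes (y axis) in each library by condition (x axis). Right, summed TPM of the 48 genes in the same libraries. Cond 3 is highest in the left panel, at 0.21 to 0.25, and the Cond 2 libraries at 0.06 to 0.11 lie close to the highest Cond 1 library.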

How the data were processed

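RNA-Seq was analysed from poly(A) libraries (NEBNext Ultra II Directional) of 201B7 cells, 12 in 4 conditions. Per the methods and the labels, the authors demultiplexed reads with bcl2fastq 2.20.0.422, trimmed them with cutadapt 4.1 and fastp 0.20.1, aligned them to GRCh38 with HISAT2 2.1.0 and deposited raw read counts per gene from featureCounts, whose version and strand setting are not given in the sources used here. The authors also deposited TPM computed from counts and gene length, in which a rise of a few abundant genes lowers all others. Of 58580 lines in the count table, 5 that held only a broken piece of a gene record or lacked values were left out.

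Counts were fitted for all 12 libraries together with edgeR 4.0.16 (R 4.3.3, TMM scaling, filterByExpr, quasi-likelihood test, two-sided), and p-values were adjusted by Benjamini-Hochberg over 17747 genes. A gene was called at an adjusted p under 0.05. All printed log2 fold changes come from this fit unless another tool is named. DESeq2 1.42.0, and limma 3.58.1 on log2(TPM + 1) and log2(TPM + 0.1) in 14253 genes with at least 1 TPM in every library, were alternatives, with other scalings, no filter, a replicate block and each library left out. The fits were tested on data simulated for Cond 3 against Cond 1, with changed genes drawn from all genes that passed the filter. There edgeR recovered 14 of 64 genes changed 1.25-fold and 19 of 41 changed 1.5-fold. It recovered 31 of 45 changed 2-fold and 50 of 50 changed 4-fold. A gene that did not pass is therefore not shown to be unchanged. The members and lists were chosen with earlier results of these data known. Values by library are given for the most abundant gene of each role group, the 4 largest changes called per comparison and partners of these, chosen after seeing values, and genes of other lists were named from the 3 largest changes called per list and comparison, with FOXM1, MYBL2 and MKI67 always named. Counting error aside, precision is limited by 3 libraries per condition.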

Additional observations from a re-analysis of the deposited data

How the results depend on the processing

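No called value changed sign under any alternative. Of the values near 0, the median of the set in Cond 4 became -0.00529 without Cond 1 replicate 3, and the BUB1 to BUB3 difference in Cond 2 became -0.00815 without Cond 2 replicate 3. At a fold change above 2, the counts fell to 0 for the mitotic set and the other mitotic genes in each comparison, and for S phase genes to 0, except 2 higher in Cond 3 when set against Cond 1 and 2 when set against Cond 2. With limma on TPM, genes of the set lower in Cond 2 numbered 1 (pseudocount 1) or 0 (0.1), other mitotic and S phase genes lower in Cond 2 were 0, other mitotic genes higher in Cond 3 against Cond 2 were 9, and the median of the set was 0.16 or 0.162 in Cond 2 and 0.0541 or 0.0543 in Cond 3 against Cond 2. Upper-quartile scaling gave 0.141 for the last. Over all genes, the median with limma (pseudocount 1) was 0.085 in Cond 2 and -0.069 in Cond 3 against Cond 2. By edgeR the medians over all genes were 0.00018 and -0.0012. The limma and edgeR medians of the set therefore do not share a baseline. With only the 6 libraries compared, 0 other mitotic and 0 S phase genes were lower in Cond 2, and 0 S phase genes with no filter. The cause was not tested.

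Replicate numbers were not taken to pair the libraries, and the labels do not tie a number to a plate. Correlations of deviations exceeded 0.1 in few pairs: -0.0888 to 0.135 for the same number (median 0.0453) and -0.191 to 0.187 for other numbers (median -0.014). The 9 same-number values with Cond 4 were all positive. Such small values cannot decide whether the numbers pair the libraries. With a replicate block, 12 rose and 3 fell in Cond 2, 26 and 5 in Cond 3, and 0 other mitotic genes fell in Cond 2.

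Leaving out 1 library at a time gave, in Cond 2, 8 to 12 of the set higher and 1 (without Cond 1 replicate 2) to 2 lower, 14 (without Cond 1 replicate 3 or Cond 2 replicate 2) to 22 other mitotic genes higher and 0 to 1 lower, 8 to 11 S phase genes higher and 0 to 1 lower, and medians of the set from 0.0655 to 0.125 (without Cond 1 replicate 2). In Cond 3 the medians were 0.196 to 0.245 (without Cond 1 replicate 2). With 3 libraries a condition, changes near 0.2 on the log2 scale were often lost.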
